A study of Mus musculus with 12 samples.

Results

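The genes described here are the imprinted neighbours of the H19-Igf2 and Kcnq1 region on mouse chromosome 7, followed in differentiating embryonic stem (ES) cells with and without the chromatin protein gene Smchd1. They are H19, Igf2, Ascl2, Cd81, Tssc4, Kcnq1, Kcnq1ot1, Cdkn1c, Slc22a18 and Phlda2, chosen by name and position and not by their values. Of these 10 genes, 9 have a row among the 25965 genes of the deposited table, and all 9 passed the filter on low values; Kcnq1ot1 has no row. The rows run from base 142575529 (H19) to base 143502541 (Phlda2) of chromosome 7 (mm10). The 12 libraries are C57BL/6 ES cells, labelled male, in 6 groups of 2: Smchd1 fl/fl (floxed) and Smchd1 del/del (deleted), each at day 1, day 5 and day 8. The series asks what changes when Smchd1 is lost while ES cells differentiate. Each ES line came from a single blastocyst and was divided in culture. The floxed part was left without virus, and the other part received a retrovirus carrying Cre and a puromycin resistance gene (MSCV-Cre-puro) and then puromycin. The deletion therefore cannot be told apart from transduction and selection in any comparison of genotypes. In the protocol, cells of both genotypes were weaned in serum with LIF, lost LIF and gained Fgf2, and later received a Gsk3 inhibitor and then Gdf11. The course leads towards neuromesodermal progenitors (NMP), cells of the tail end of the embryo that give rise to spinal cord and paraxial mesoderm. Day 5 follows Wnt activation by the Gsk3 inhibitor and day 8 follows Gdf11, so day and treatment cannot be told apart in any comparison of days. The sample called day 1 in the labels is undifferentiated and is called day 0 in the protocol; the label is used here. Replicates 1 and 2 of each group are lines 1 and 3, and paired values below are given in that order.

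Imprinted genes are transcribed mainly from the copy inherited from a particular parent, under the control of DNA methylation laid down in the egg or sperm. In the H19-Igf2 domain, CTCF bound to the unmethylated maternal control region insulates Igf2 from shared enhancers, so H19, a long noncoding RNA, is made from the maternal copy and Igf2, a fetal growth factor, from the paternal copy. In the neighbouring Kcnq1 domain, the long noncoding RNA Kcnq1ot1 is transcribed from the unmethylated paternal control region and silences neighbours such as Cdkn1c and Phlda2 on that copy. Some genes of that domain, Ascl2 and Cd81 among them, are imprinted chiefly in the placenta. SMCHD1 is a chromatin protein of the SMC family, known for its part in silencing the inactive X chromosome and some imprinted clusters. The cells are of an inbred strain and the table gives a single value per gene, so the parental copies cannot be told apart and all values below are totals over both.

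The RefSeq sequences below (GRCm38.p6) show the microRNAs counted with H19 and Igf2 and the promoters of 3 genes whose change over time passed the test. H19 and Igf2 each carry a microRNA, miR-675 in an exon of H19 and miR-483 in an intron of Igf2, and reads from either precursor fall inside the span of its host gene. The 4 mature RNAs follow, with the seed (bases 2 to 8) in capitals, and no 2 of them share a seed.
mmu-miR-675-5p: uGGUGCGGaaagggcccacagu
mmu-miR-675-3p: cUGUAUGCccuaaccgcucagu
mmu-miR-483-5p: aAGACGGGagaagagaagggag
mmu-miR-483-3p: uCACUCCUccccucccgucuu

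Phlda2 and Ascl2 were the genes that fell between day 5 and day 8, and Igf2 rose from day 1 to day 5, so their promoters are shown (250 bases before to 50 after the start, on the minus strand). Capitals mark TATAAA (the TATA box), GGGCGG (the GC box) and CCAAT (the CCAAT box) on either strand, the only motifs searched, and no match overlaps another. Igf2 has 4 annotated starts, which the gene-level values cannot separate, and the window shown is the only one of the 4 with more than 1 GGGCGG. The Phlda2 window is chr7:143502475-143502774, the Ascl2 window chr7:142969215-142969514 and the Igf2 window chr7:142657447-142657746.
Phlda2 promoter: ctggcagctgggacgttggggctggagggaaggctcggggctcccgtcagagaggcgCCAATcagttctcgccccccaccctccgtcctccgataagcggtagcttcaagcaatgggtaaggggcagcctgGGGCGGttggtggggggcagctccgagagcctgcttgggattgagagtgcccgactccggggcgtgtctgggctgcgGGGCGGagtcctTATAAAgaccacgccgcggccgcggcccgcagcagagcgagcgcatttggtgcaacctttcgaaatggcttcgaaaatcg
Ascl2 promoter: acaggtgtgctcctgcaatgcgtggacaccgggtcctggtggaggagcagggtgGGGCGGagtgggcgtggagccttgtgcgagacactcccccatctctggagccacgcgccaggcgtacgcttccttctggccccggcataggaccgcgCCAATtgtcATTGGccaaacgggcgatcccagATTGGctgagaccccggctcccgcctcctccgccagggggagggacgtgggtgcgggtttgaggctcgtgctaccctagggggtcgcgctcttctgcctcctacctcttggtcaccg
Igf2 promoter: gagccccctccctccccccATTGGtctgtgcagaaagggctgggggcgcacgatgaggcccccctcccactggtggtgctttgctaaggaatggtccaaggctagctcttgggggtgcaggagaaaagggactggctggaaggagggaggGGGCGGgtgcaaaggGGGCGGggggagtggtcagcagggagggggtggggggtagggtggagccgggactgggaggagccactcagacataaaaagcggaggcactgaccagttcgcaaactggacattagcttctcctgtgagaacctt
The Phlda2 window has TATAAA with its first base at -30 from the start, GGGCGG 2 times, CCAAT 1 time and 26 CpG dinucleotides. The Ascl2 window has no TATAAA, 1 GGGCGG, 3 CCAAT and 23 CpG. The Igf2 window has no TATAAA, 2 GGGCGG, 1 CCAAT and 7 CpG. Among 32851 promoter windows of this length, 13.62% hold TATAAA, 35.66% GGGCGG and 37.41% CCAAT, and the median is 7 CpG. These matches are descriptions of letters and not sites of binding. RefSeq windows were matched for 7 of the 10 genes, and not for H19, Kcnq1 and Cdkn1c.

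The libraries held 1.51 to 8.67 M reads in genes (M, mega), which is 10.1 to 27.8% of the total each was divided by, so the deposited values move with the share of reads in genes. On the deposited scale the median gene differed between del/del and fl/fl by 0.16 at day 1, -0.40 at day 5 and 0.90 at day 8 (log2), and between day 5 and day 1 by -0.42 in fl/fl and -0.88 in del/del. Between day 8 and day 5 it differed by -0.55 in fl/fl and 0.69 in del/del. All levels and differences below are therefore relative to the median gene (relative log2 RPM, RPM being reads per M reads), and the deposited scale is named beside many of the results it turns. The library with the fewest gene reads (1.51 M), line 3 of fl/fl at day 8, comes from a column whose name marks it as a merge, and it stands apart in this region as described below. Reads of Smchd1 numbered 1212 and 1495 in fl/fl and 197 and 271 in del/del on day 1. On day 5 they numbered 366 and 919 in fl/fl and 102 and 104 in del/del, and on day 8 they numbered 728 and 111 in fl/fl and 161 and 140 in del/del. Its relative difference was -2.85, -2.07 and -2.43 at the 3 days (limma adjusted p = 0.00187, 0.043 and 0.00229). The difference was negative at each day in all 19 other settings. The day 8 call held in all of them, the day 1 call in 15 and the day 5 call in 5 only. The day 1 call was lost on the deposited scale (limma adjusted p = 0.449) and without either fl/fl day 1 library or del/del day 1 line 1 (0.0535 to 0.0821). The day 5 call was lost with the line as a block (limma adjusted p = 0.137) and on the deposited scale (-2.45, limma adjusted p = 0.752). It was also lost without any single library except del/del day 5 line 1 and those of fl/fl day 8. Markers of neuromesodermal progenitors (8 genes, among them T, Cdx2 and Nkx1-2) summed to 81.3 to 123 relative RPM at day 5 and to 24.2 to 53.3 at the other days. Of 7 tested, 6 rose and 1 fell from day 1 to day 5 in each genotype (limma adjusted p under 0.05). Of all genes 23.0% rose and 17.9% fell in fl/fl, and 21.2% and 18.3% in del/del. Sox2, the 1 that fell, was at 5.69 and 5.47 in fl/fl and 5.42 and 5.34 in del/del at day 1 (relative log2 RPM). At day 5 Sox2 was at 4.08 and 3.94 in fl/fl and 4.09 and 3.46 in del/del. Reads of a row appear to be counted over the whole span of a gene on both strands: a row that encloses another had at least its reads in all 12 libraries in 530 of 530 pairs on opposite strands and 160 of 160 on the same strand (inner rows of at least 200 reads).

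At every day H19 was the most abundant of the 9 genes per length (reads per kb of exon per M gene reads, median of 4 libraries). The median was 148 for H19 at day 1, above Cd81 (72.9), Cdkn1c (56), Tssc4 (33.6), Phlda2 (30.7), Ascl2 (27.5), Igf2 (11.2), Slc22a18 (1.21) and Kcnq1 (0.957). On this scale the ranges of Tssc4 (27.3 to 37.9), Phlda2 (29.3 to 31.4) and Ascl2 (23.3 to 32) overlapped at day 1, as did those of Slc22a18 and Kcnq1. At day 5 Igf2 had reached a median of 71.5, behind H19 (376), Cdkn1c (187) and Cd81 (123), with no overlap between the Igf2 range (60.2 to 103) and that of Tssc4 (32.1 to 42.3). At day 8 the order at the top was the same, with Igf2 at 103 and with overlapping ranges for Cdkn1c, Cd81 and Igf2, while Phlda2 had gone from 39 at day 5 to 5.66 and Ascl2 from 14.8 to 2.64. Lengths are exon lengths although counting appears to use the span, so this order is approximate. Igf2 shares 62.8% of its exon bases with the readthrough gene Gm49394 and Cdkn1c shares 30.65% with the antisense gene Gm44732, neither of which has a row.

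**Figure D1:**
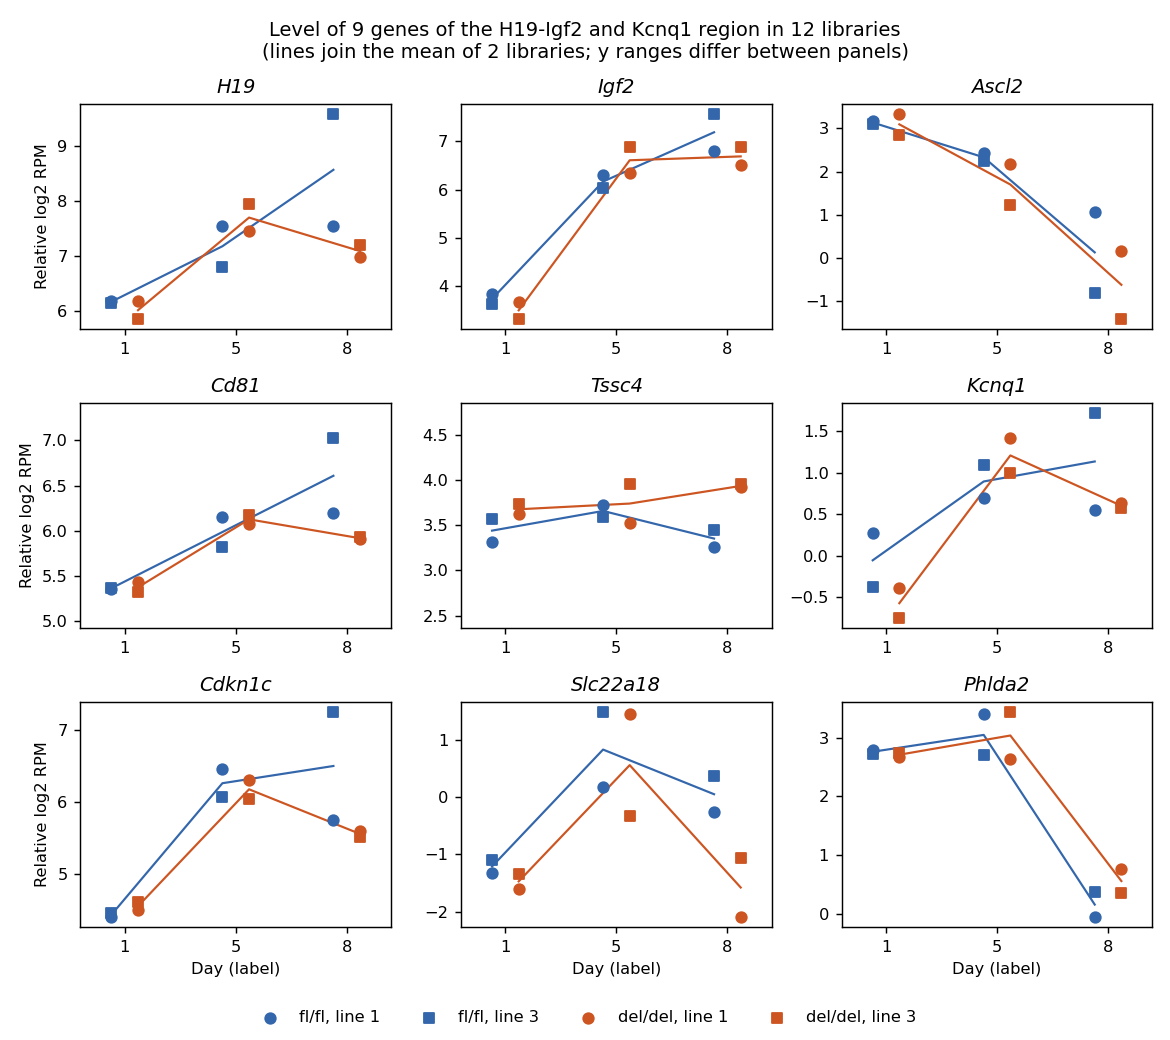
Relative log2 RPM of the 9 genes (vertical axis, range differing between panels) against day, with 1 point for each of the 12 libraries, fl/fl in blue and del/del in orange, circles for line 1 and squares for line 3, and lines through the mean of 2 libraries. Igf2 and Cdkn1c are higher at day 5 than at day 1 in all libraries, Phlda2 is at 0.76 or lower in all 4 day 8 libraries, and the fl/fl day 8 square is the highest point for H19, Igf2, Cd81, Kcnq1 and Cdkn1c.

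Igf2 had the largest rise of the 9 genes from day 1 to day 5. Its relative log2 RPM was 3.84 and 3.62 in fl/fl and 3.67 and 3.32 in del/del at day 1, and 6.30 and 6.04 in fl/fl and 6.34 and 6.88 in del/del at day 5. Every day 5 library lay above every day 1 library. Igf2 rose by 2.44 ± 0.26 (log2, SE, n = 2 lines a group) or 5.42-fold in fl/fl (limma adjusted p = 5.609e-05) and by 3.12 ± 0.26 or 8.67-fold in del/del (adjusted p = 1.15e-05). Both calls held in all 19 other settings tried. At day 8 the values were 6.81 and 7.57 in fl/fl and 6.51 and 6.88 in del/del. Between day 5 and day 8 Igf2 rose further in fl/fl, by 1.02 ± 0.26 (adjusted p = 0.0429), while the del/del difference was 0.08 (95% interval -0.49 to 0.66). The fl/fl call at day 8 held in 7 of 19 other settings only, and was lost with no filter (0.68, limma adjusted p = 0.2098). It was lost with the line as a block (adjusted p = 0.0552), on the deposited scale (0.47, adjusted p = 0.371) and without the shallowest library (0.64, adjusted p = 0.202). It was also lost without any 1 of the day 1 libraries, the fl/fl day 5 libraries or the del/del day 8 libraries (adjusted p from 0.057 to 0.184). In bulk RNA, more cells of a type and more RNA per cell cannot be told apart.

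H19 was high in undifferentiated cells and changed less than Igf2 from day 1 to day 5. It had 2346 and 2579 reads in fl/fl and 2834 and 2620 in del/del at day 1, and 4145 and 4434 in fl/fl and 4295 and 4926 in del/del at day 5. In relative log2 RPM these were 6.18, 6.14, 6.17 and 5.85 at day 1 and 7.55, 6.80, 7.45 and 7.94 at day 5, with no overlap between days. In the same order the libraries held 6.42, 7.14, 7.67 and 8.67 M gene reads at day 1. At day 5 they held 4.36, 7.60, 4.78 and 3.99 M. The day 5 value of H19 was lowest in the deepest of these libraries and highest in the shallowest. The part of depth in the differences of H19 between days was not tested. H19 rose between day 1 and day 5 in del/del, by 1.69 ± 0.50 or 3.22-fold (adjusted p = 0.0196). In fl/fl the difference was 1.01 (95% interval -0.08 to 2.10, adjusted p = 0.127). The del/del call was lost without day 1 line 1 (adjusted p = 0.061), day 1 line 3 (0.108) or day 5 line 3 (0.0994), and the fl/fl difference passed with the trend on read density removed (0.83, adjusted p = 0.0196) or without either day 8 library of fl/fl (adjusted p = 0.00607 and 0.0057). The difference of the 2 rises was 0.68 ± 0.70 (adjusted p = 0.962). From day 5 to day 8 H19 differed by 1.39 in fl/fl (95% interval 0.30 to 2.49, limma adjusted p = 0.113). In del/del it differed by -0.61 (95% interval -1.70 to 0.48). The fl/fl difference passed with the trend on read density removed (0.95, limma adjusted p = 0.0435). It was 2.41 without fl/fl day 8 line 1, which leaves the shallowest library as the only day 8 control.

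At day 8 the number of H19 reads hardly varied while library depth did. H19 had 5612 and 5343 reads in fl/fl and 5332 and 5827 in del/del, a 1.09-fold span, over libraries whose gene reads spanned 5.37-fold. The shallow fl/fl library of line 3 held 25.3% of the gene reads of its line 1 partner but 95.2% of its H19 reads. Reads of H19 per exon base ran from 0.954 to 1.15 on day 1, from 1.69 to 2.00 on day 5 and from 2.17 to 2.37 on day 8, and in the shallow library it ranked 1st in reads per base among 21704 genes of at least 500 bases. For the other genes of the region this share was 65.8% (Cdkn1c), 52.3% (Kcnq1), 41.2% (Cd81), 39.3% (Igf2), 36% (Slc22a18), 31% (Phlda2), 26.4% (Tssc4) and 6.35% (Ascl2). The last 4 genes had 76 reads or fewer in the shallow library, Ascl2 only 4. Over all genes the median of this ratio was 0.207 for genes with 0.01 to 0.1 reads per exon base in the deeper library and 0.402 for the 51 genes with 1 to 2. No source used here says how duplicate reads were treated. Removing the trend on read density over all genes moved the difference of H19 between genotypes at day 8 from -1.48 to -0.75.

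**Figure D2:**
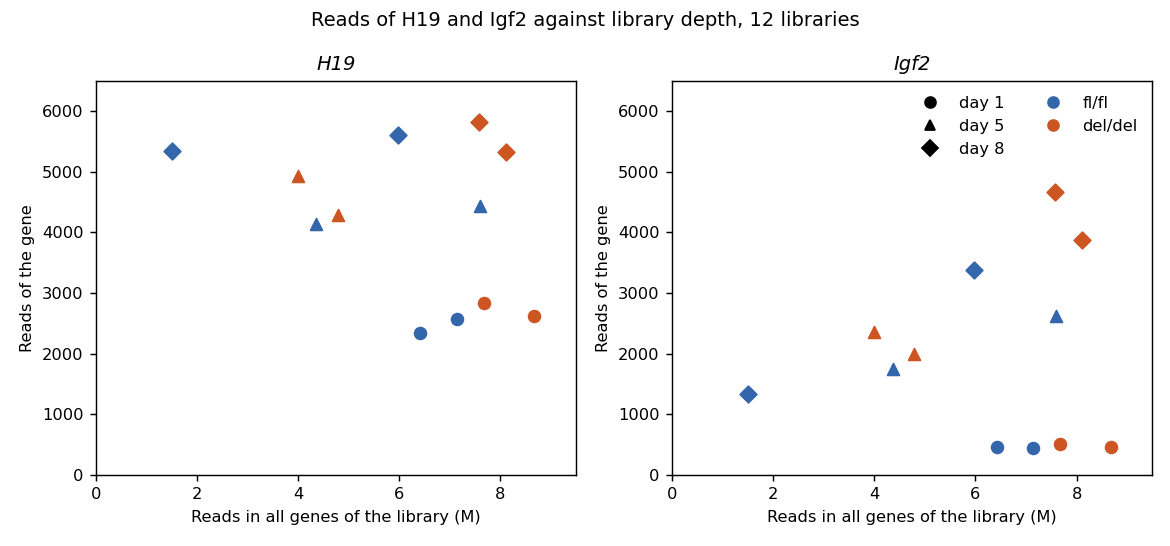
Reads of H19 (left) and Igf2 (right) on the vertical axis against the gene reads of each of the 12 libraries in M on the horizontal axis, by day (shape) and genotype (colour). The 4 day 8 libraries sit between 5332 and 5827 for H19 over 1.51 to 8.11 M gene reads, whereas Igf2 runs from 1327 to 4664 reads in the same libraries.

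The ratio of H19 to Igf2 reads, which no scaling changes, was lower in every day 5 and day 8 library than in any day 1 library. It was 5.06 and 5.74 in fl/fl and 5.63 and 5.78 in del/del at day 1, and 2.37, 1.69, 2.15 and 2.09 in the same order at day 5. At day 8 it was 1.66 and 4.03 in fl/fl and 1.38 and 1.25 in del/del, the 4.03 being the shallow library. In the same order these libraries held 5.97, 1.51, 8.11 and 7.57 M gene reads. Scaling leaves the ratio as it is, but H19 reads hardly varied with depth at day 8 and ran only from 4145 to 4926 at day 5. The part of depth in the ratio was not tested. Averaged over days, log2 of the ratio differed between del/del and fl/fl by -0.27 (exact permutation test within days, two-sided, p = 0.444 over 216 arrangements, smallest possible p = 0.00926). The difference was 0.08 at day 1, 0.08 at day 5 and -0.98 at day 8.

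**Figure D3:**
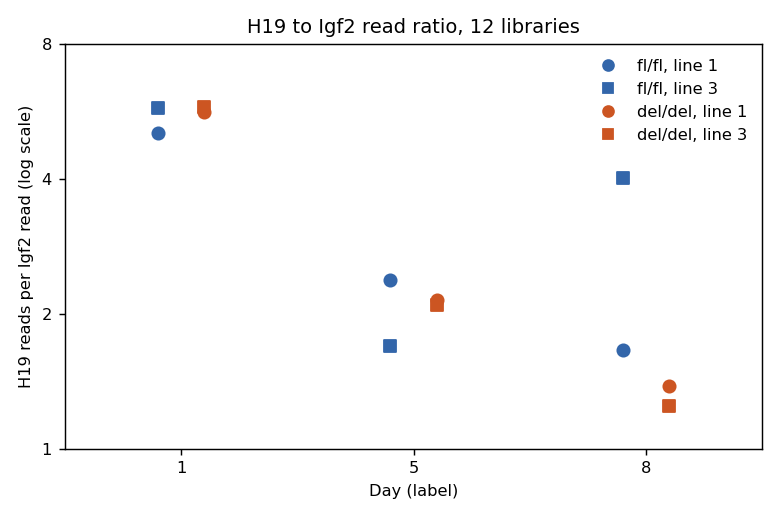
H19 reads per Igf2 read (vertical axis, log scale) in each of the 12 libraries by day, fl/fl in blue, del/del in orange, circles for line 1 and squares for line 3. Day 1 libraries lie between 5.06 and 5.78, and at day 8 all lie between 1.25 and 1.66 except the shallow fl/fl library of line 3 at 4.03.

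In the Kcnq1 domain, Cdkn1c, which encodes the cell cycle inhibitor p57, followed Igf2 in time. Its relative log2 RPM was 4.40 and 4.46 in fl/fl and 4.49 and 4.61 in del/del at day 1, and 6.46 and 6.07 in fl/fl and 6.31 and 6.04 in del/del at day 5. The days did not overlap and the genotypes at day 5 did. Cdkn1c rose by 1.83 ± 0.36 or 3.56-fold in fl/fl (adjusted p = 0.00213) and by 1.63 ± 0.36 or 3.09-fold in del/del (adjusted p = 0.00431). The fl/fl call held in all 19 other settings, and the del/del call was lost on the deposited scale (0.72, adjusted p = 0.0719). At day 8 Cdkn1c was at 5.75 and 7.26 in fl/fl and at 5.60 and 5.52 in del/del. The change from day 5 was 0.24 (95% interval -0.54 to 1.02) in fl/fl and -0.62 (-1.41 to 0.16) in del/del.

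Phlda2, a PH domain gene that restrains placental growth, ran the other way. It was at 2.80 and 2.72 in fl/fl and 2.67 and 2.74 in del/del at day 1, and at 3.39 and 2.70 in fl/fl and 2.63 and 3.44 in del/del at day 5. At day 8 it was at -0.05 and 0.37 in fl/fl and at 0.76 and 0.36 in del/del, from 29, 9, 72 and 51 reads. All 4 day 8 libraries lay below all others. Phlda2 fell by 2.89 ± 0.33 (log2) or 7.40-fold in fl/fl (adjusted p = 0.00305) and by 2.48 ± 0.33 or 5.57-fold in del/del (adjusted p = 0.00135) from day 5 to day 8, and both calls held in all 19 other settings.

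Ascl2, a basic helix-loop-helix factor of the trophoblast that is also a Wnt target, had a lower mean at each later day in each genotype. It was at 3.16 and 3.10 in fl/fl and 3.33 and 2.85 in del/del at day 1, at 2.42, 2.23, 2.17 and 1.23 at day 5, and at 1.07, -0.80, 0.17 and -1.40 at day 8, where it had 63, 4, 48 and 15 reads. The 3 days did not overlap in either genotype. Ascl2 fell by 2.32 ± 0.62 (log2) or 4.98-fold in del/del from day 5 to day 8 (adjusted p = 0.0354). The fl/fl difference was -2.20 (95% interval -3.56 to -0.83, adjusted p = 0.0583, and 0.0282 with the line as a block). From day 1 to day 5 the difference passed in neither genotype. It was -0.80 in fl/fl (95% interval -2.17 to 0.56, limma adjusted p = 0.32). In del/del it was -1.39 (limma adjusted p = 0.0979, and 0.0346 with the block). On the deposited scale this del/del difference was -2.30 and passed (limma adjusted p = 0.0183). The del/del call at day 8 held in 9 of 19 other settings, and was lost with no filter (-1.84, limma adjusted p = 0.128). It was lost without day 8 line 3 (-1.52, adjusted p = 0.274), without day 5 line 1 (-1.84, adjusted p = 0.131), without any 1 of the 4 day 1 or 2 fl/fl day 5 libraries (adjusted p from 0.0547 to 0.0592) and on the deposited scale (-1.62, adjusted p = 0.155).

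Kcnq1, a potassium channel subunit, and Slc22a18, a membrane transporter, were near the lower limit of what these libraries measure. The Kcnq1 row had 39 and 28 reads in fl/fl and 30 and 27 in del/del at day 1, 36, 85, 66 and 40 at day 5 and 44, 23, 66 and 59 at day 8. Kcnq1 rose by 1.78 ± 0.45 or 3.44-fold in del/del from day 1 to day 5 (adjusted p = 0.00921), a call lost without day 1 line 3 (1.60, adjusted p = 0.0672) and on the deposited scale (0.88, adjusted p = 0.222). The del/del call was also lost with no filter (1.25, limma adjusted p = 0.121). In fl/fl the difference was 0.95 (95% interval -0.04 to 1.94). Slc22a18 had 13 and 17 reads in fl/fl and 13 and 18 in del/del at day 1, and 25, 112, 67 and 16 at day 5. It rose by 2.04 ± 0.68 in fl/fl (adjusted p = 0.0325) and by 2.03 ± 0.68 in del/del (adjusted p = 0.034). Only fl/fl day 5 line 3 (1.82) and del/del day 5 line 1 (1.10) had a deposited log2 value of Slc22a18 above 0. The gene thus passed the filter through day 5 libraries alone, where it was high. With no filter neither call passed (limma adjusted p = 0.1425 in fl/fl and 0.2029 in del/del). Either call was lost without either day 1 library of its genotype (adjusted p from 0.0983 to 0.146) and on the deposited scale (0.138 in fl/fl and 0.239 in del/del). At day 5 line 3 was the higher in fl/fl (0.17 and 1.49 in relative log2 RPM) and line 1 in del/del (1.44 and -0.33).

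The annotated span of Kcnq1ot1 (chr7:143203458-143296549, minus strand, GENCODE M21) lies inside that of the Kcnq1 row (chr7:143107254-143427042, plus strand). Given the counting over spans described above, the Kcnq1 row would include reads of Kcnq1ot1. Its 23 to 85 reads, 0.866 to 2.68 RPM, would then be an upper limit for Kcnq1ot1 in each library, and the ratio of Cdkn1c to Kcnq1ot1 could not be formed.

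Cd81, a tetraspanin of the cell surface, and Tssc4, which takes part in assembly of the spliceosome, lie between Igf2 and Kcnq1. Cd81 was at 5.31 to 5.43 at day 1 and 5.82 to 6.18 at day 5 in relative log2 RPM, and the days did not overlap. It rose by 0.62 ± 0.22 or 1.54-fold in fl/fl (adjusted p = 0.0413, and 0.0529 with the line as a block). In del/del it rose by 0.75 ± 0.22 or 1.69-fold (adjusted p = 0.0187). The deposited scale gives 0.25 in fl/fl (limma adjusted p = 0.547) and -0.15 in del/del (0.661). With no filter the values were 0.38 in fl/fl (limma adjusted p = 0.341) and 0.22 in del/del (0.541). The fl/fl call held in 8 of 19 other settings and was lost without any 1 of the 4 day 1, 2 fl/fl day 5 or 2 del/del day 8 libraries (adjusted p from 0.0544 to 0.227). The del/del call held in 14 and was lost without day 1 line 1 (adjusted p = 0.0678), day 1 line 3 (0.107) or day 5 line 3 (0.069). At day 8 Cd81 was at 6.19 and 7.02 in fl/fl, the latter in the shallow library, and at 5.91 and 5.93 in del/del. Its change from day 5 was 0.62 (95% interval 0.14 to 1.11, adjusted p = 0.109) in fl/fl. Tssc4 was at 3.26 to 3.96 in all 12 libraries and passed no test over time. Tssc4 lies inside the row of Trpm5, which had only 2 to 9 reads more than Tssc4 in each library, so those rows share nearly all their reads.

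Counted together, 4 of the 9 genes rose from day 1 to day 5 in fl/fl (Igf2, Cdkn1c, Slc22a18 and Cd81) and 6 in del/del (those and H19 and Kcnq1), and none fell. Slc22a18 is in these counts although it passed the filter only through day 5 libraries. Of all 14063 tested genes 23.0% rose and 17.9% fell in fl/fl, and 21.2% rose and 18.3% fell in del/del. In fl/fl the libraries of day 5 and day 1 did not overlap for 8 of the 9 genes (7 higher and Ascl2 lower), beside 38.2% of all genes higher and 41.0% lower, and in del/del for 7 (6 higher and Ascl2 lower), beside 36.6% and 35.3%. The median difference of the 9 genes was 0.95 in fl/fl and 1.63 in del/del, beside -0.04 and 0.03 over all tested genes. From day 5 to day 8, 1 gene rose (Igf2) and 1 fell (Phlda2) in fl/fl, beside 3.15% higher and 3.58% lower of all genes. In del/del 0 rose and 2 fell (Phlda2 and Ascl2), beside 7.24% higher and 4.67% lower.

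The genotype comparison gave no call for any of the 9 genes at any day. At day 1 the differences (del/del minus fl/fl) ran from -0.52 for Kcnq1 to 0.24 for Tssc4, all with a limma adjusted p of 0.9999, and 0 had an unadjusted p under 0.05 beside 170 of all genes. At day 5 they ran from -0.63 for Ascl2 to 0.52 for H19, with adjusted p from 0.602 and 0 with an unadjusted p under 0.05, beside 1088 of all genes. Each of these comparisons called 0.00711% of all tested genes, which is Smchd1 alone. The intervals show what was within reach: at day 1 the 95% interval was -0.47 to 0.49 for Cd81, -0.81 to 0.34 for Igf2, -0.66 to 0.90 for Cdkn1c and -1.25 to 0.94 for H19. Averaged over days none of the 9 passed (adjusted p from 0.120, for Tssc4 at 0.30 ± 0.10, the only 1 with an unadjusted p under 0.05, beside 3447 of all genes), where 0.107% of all genes were called. In the tests of whether the genotype difference changed between days none of the 9 passed either (adjusted p from 0.279), beside 0.0% of all genes for day 5 against day 1, 0.0213% for day 8 against day 1 and 0.00711% for day 8 against day 5.

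**Figure D4:**
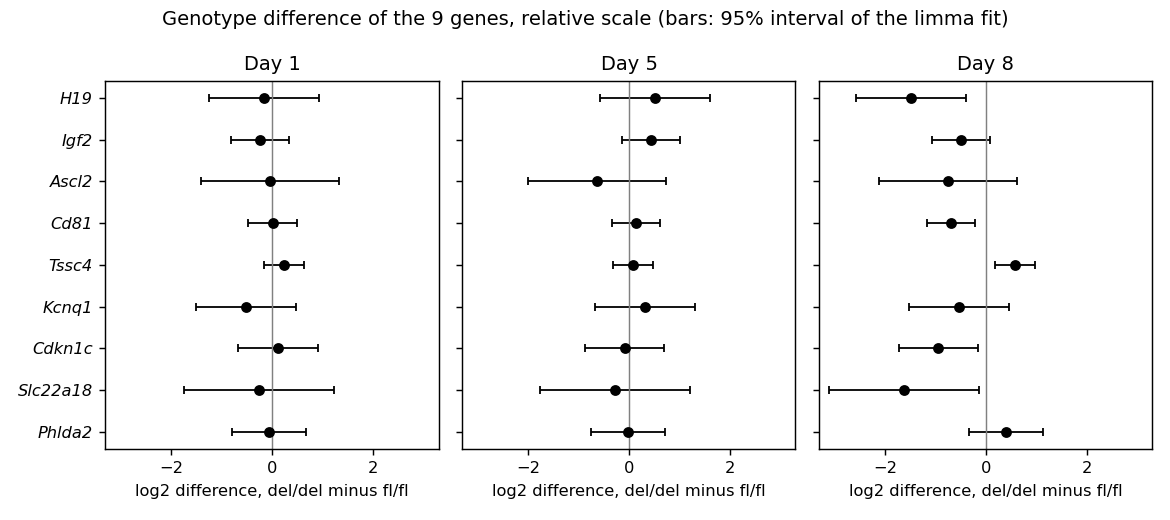
Difference del/del minus fl/fl in relative log2 RPM (horizontal axis) for the 9 genes at day 1, day 5 and day 8, with points for the estimate and bars for the 95% interval of the limma fit over 12 libraries. At days 1 and 5 all intervals include 0, and at day 8 those of H19, Cd81, Cdkn1c, Slc22a18 and Tssc4 do not, although none passed after adjustment.

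At day 8, where 15.0% of all tested genes were called (7.95% higher and 7.05% lower), 0 of the 9 genes were called, and 5 had an unadjusted p under 0.05 beside 4857 of all genes. H19 differed by -1.48 ± 0.50 (adjusted p = 0.065), Cdkn1c by -0.95 ± 0.36 (0.0897), Cd81 by -0.69 ± 0.22 (0.0554), Slc22a18 by -1.63 ± 0.68 (0.117) and Tssc4 by 0.58 ± 0.18 (0.0513), all by limma. Igf2 differed by -0.50 (95% interval -1.08 to 0.07), Ascl2 by -0.75 (-2.12 to 0.62), Kcnq1 by -0.53 (-1.53 to 0.46) and Phlda2 by 0.40 (-0.33 to 1.13). The median over the 9 genes was -0.69, beside 0.02 over all tested genes. The genotypes did not overlap at day 8 for H19, Cd81, Cdkn1c, Slc22a18 and Tssc4, beside 32.1% of all genes that were higher and 30.9% that were lower in del/del with no overlap.

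The day 8 values of H19, Cdkn1c, Cd81, Igf2 and Kcnq1 rest on the shallow fl/fl library of line 3. For Kcnq1, del/del minus fl/fl was 0.08 in line 1, -1.15 in line 3 and 0.05 without that library. In line 1 alone del/del minus fl/fl was -0.58 for H19, -0.15 for Cdkn1c, -0.29 for Cd81 and -0.31 for Igf2, and in line 3 it was -2.38, -1.74, -1.10 and -0.70. Without the shallow library the fit gave -0.46 for H19 (adjusted p = 0.365), -0.19 for Cdkn1c (0.545), -0.28 for Cd81 (0.281) and -0.12 for Igf2 (0.806), and no gene of the 9 passed. Without fl/fl day 8 line 1, which leaves the shallow library as the only day 8 control, H19 (-2.51), Cdkn1c (-1.71), Cd81 (-1.11) and Igf2 (-0.89) passed. On the deposited scale the signs of Igf2 (0.38), Cd81 (0.19), Kcnq1 (0.35) and Ascl2 (0.13) turned, and Tssc4 passed at 1.46 (adjusted p = 0.0231). Tssc4 kept its direction in both lines, at 0.66 and 0.51, and was 0.68 without the shallow library (adjusted p = 0.102). Slc22a18 was at -1.82 in line 1 and -1.43 in line 3, and at -1.31 without the shallow library (adjusted p = 0.368). Ascl2 was at -0.90 in line 1 and -0.60 in line 3, and at -1.68 without it (adjusted p = 0.138) but 0.18 without fl/fl day 8 line 1. With the trend on read density removed the day 8 differences were -0.75 for H19 (adjusted p = 0.0598), -0.53 for Cdkn1c (0.144), -0.36 for Cd81 (0.0584) and -0.34 for Igf2 (0.243), and Tssc4 passed at 0.61 (0.0336).

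Genes of the IGF pathway, the receptors and effectors of the Igf2 protein and the proteins that bind its mRNA, changed with differentiation, and none passed between genotypes. Of 9 tested, 7 rose and 1 fell from day 1 to day 5 in fl/fl and the same numbers did in del/del, beside the 23.0% and 21.2% of all genes that rose. Irs1, an adaptor of the IGF and insulin receptors, rose by 2.42 ± 0.26 in fl/fl (limma adjusted p = 6.067e-05) and by 3.66 ± 0.26 in del/del (4.426e-06). Irs2, a second such adaptor, rose by 1.64 ± 0.26 (adjusted p = 0.000621) and 2.04 ± 0.26 (0.000153), and Igf2bp2, a binder of Igf2 mRNA, by 1.08 ± 0.18 (0.000834) and 1.29 ± 0.18 (0.000282), although Irs2 and Igf2bp2 did not pass on the deposited scale. Between genotypes 0 of 9 passed at any day.

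Among genes that keep or read imprints and silence chromatin, more fell than rose with time. Of 20 tested, 1 rose and 12 fell from day 1 to day 5 in fl/fl, beside 23.0% and 17.9% of all genes, and 1 rose and 13 fell in del/del, beside 21.2% and 18.3%. Tet1, which oxidises methylated cytosine, fell by 3.19 ± 0.18 and 3.40 ± 0.18 (adjusted p = 2.002e-06 and 9.843e-07), and the methyltransferase gene Dnmt3b fell by 2.51 ± 0.21 and 2.73 ± 0.21 (1.203e-05 and 7.297e-06). At day 8, 3 were higher in del/del (Dppa3 by 1.69 ± 0.41, Ezh2 by 0.83 ± 0.17 and Dnmt3a by 0.50 ± 0.11, adjusted p = 0.0251, 0.0168 and 0.0213) and 1 was lower (Dnmt3l at -1.35 ± 0.23, 0.00963), beside the 7.95% and 7.05% of all genes. Without the shallow library 1 was higher (Dppa3 at 2.14, adjusted p = 0.0438) and 1 lower (Dnmt3l at -1.45, 0.0412), beside 1.32% higher and 0.812% lower of all genes. Without del/del day 8 line 3 none of the 20 passed, beside 0.0868% higher and 0.289% lower of all genes. Ezh2, Dnmt3a and Dppa3 did not pass without del/del day 8 line 1 either (adjusted p = 0.0648, 0.0733 and 0.0982), nor Dppa3 without fl/fl day 8 line 1 (0.0529), nor Dnmt3l on the deposited scale (-0.47, 0.368).

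Imprinted genes from outside this region, often co-expressed with H19 and Igf2 in the embryo, included members that passed between genotypes at day 8. Of 13 tested, 4 were higher and 1 lower in del/del at day 8, beside 7.95% and 7.05% of all genes. Dlk1, a Notch-like membrane protein, was higher by 3.73 ± 0.71, Mest, a hydrolase, by 2.74 ± 0.42, and Grb10, an inhibitor of insulin and IGF receptor signalling, by 1.74 ± 0.32, and Peg10, derived from a retrotransposon, was lower, at -1.33 ± 0.27 (limma adjusted p = 0.0141, 0.00743, 0.0131 and 0.0157). Without the shallow library only Mest passed, at 1.86 (adjusted p = 0.00611), with Dlk1 at 3.16 (0.0794), Grb10 at 1.32 (0.0701) and Peg10 at -0.89 (0.0728). Without del/del day 8 line 3 none of the 13 passed, Mest being at 2.59 (adjusted p = 0.0755), and on the deposited scale Peg10 did not pass (-0.45, 0.139). From day 1 to day 5, 7 rose and 2 fell in fl/fl, beside 23.0% and 17.9% of all genes, and 8 rose and 1 fell in del/del, beside 21.2% and 18.3%. Plagl1, a zinc finger factor known to act on H19 and Igf2, rose by 3.75 ± 0.34 and 3.14 ± 0.34 (adjusted p = 2.107e-05 and 6.5e-05), and Sgce, a sarcoglycan, by 1.66 ± 0.14 and 2.07 ± 0.14 (1.363e-05 and 3.917e-06).

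The rows within 300 kb of the region, 30 in all, gave 18 tested genes. From day 1 to day 5, 9 rose and 2 fell in fl/fl, beside 23.0% and 17.9% of all genes, and 8 rose and 2 fell in del/del, beside 21.2% and 18.3%. Osbpl5, an oxysterol binding protein gene next to the Kcnq1 domain, rose by 4.27 ± 0.33 and 4.29 ± 0.33 (adjusted p = 8.376e-06 and 7.287e-06), and Igf2as, whose row overlaps Igf2, by 2.25 ± 0.32 and 2.39 ± 0.32 (0.000324 and 0.000222). At day 8, 2 were higher in del/del and 1 was lower, a share near the 15.0% of all genes called. Lsp1, a leukocyte actin-binding protein gene whose middle lies at -100.3 kb from the H19 start (Igf2 lies at 80.7 kb), had 324 and 11 reads in fl/fl and 2011 and 1822 in del/del, and was higher by 3.50 ± 0.75 (adjusted p = 0.0186). The other gene that was higher, the predicted gene Gm14492, had 48 and 1 reads in fl/fl and 293 and 288 in del/del. Its row (142491074 to 142506771) overlaps that of Lsp1 (142460809 to 142494867), so the 2 calls may share reads. Ctsd, a lysosomal protease, was lower, at -1.26 ± 0.31 (adjusted p = 0.0255). Without the shallow library none of 17 tested flanking genes passed, with Lsp1 at 2.11 (adjusted p = 0.0813) and Ctsd at -0.65 (0.0959), and without del/del day 8 line 3 none of 18 did. Lsp1 and Ctsd did not pass without del/del day 8 line 1 either (adjusted p = 0.0687 and 0.0846), nor Ctsd on the deposited scale (-0.38, 0.240).

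**Figure D5:**
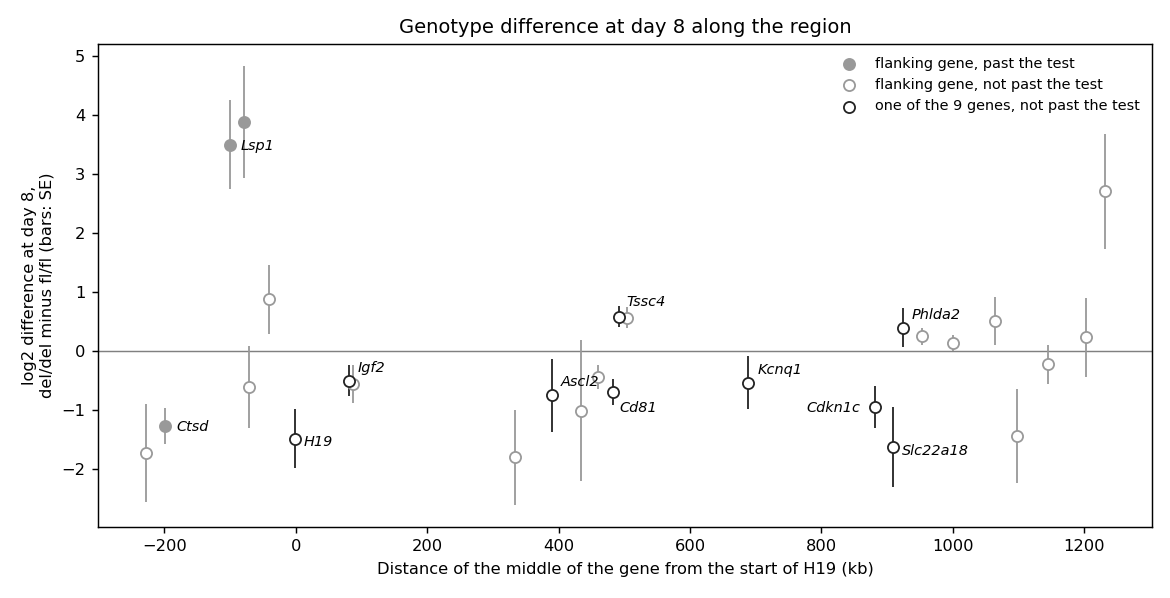
Difference del/del minus fl/fl at day 8 in relative log2 RPM (vertical axis, bars are the SE of the limma fit) against the distance of the middle of each tested gene from the start of H19 in kb, for the 9 genes (black) and the 18 flanking genes (grey), filled where the adjusted p passed. The filled points are Lsp1 and the overlapping Gm14492 at 3.50 and 3.88 and Ctsd at -1.26, while the 9 genes lie between -1.63 and 0.58.

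Markers of other cells moved with day and genotype, and their part in the values above was not tested. Extraembryonic endoderm markers (11 genes) summed to between 8.69 and 14.9 relative RPM at day 1. At day 8 their sum was 653 to 682 in fl/fl and 175 to 385 in del/del, with Col4a1 and Lama1 the largest parts in each library. Ttr and Apoa1 had 0 reads in del/del at day 8, and in fl/fl Ttr had 16 and 0 and Apoa1 0 and 5. Of 8 tested, 0 were higher and 1 was lower in del/del at day 8, beside 7.95% and 7.05% of all genes. Trophoblast markers (13 genes, Ascl2 not among them) summed to 257 to 629 in fl/fl, the 629 being the shallow library, and 96 to 137 in del/del at day 8. Elf5 had 2 and 2 reads in fl/fl and 0 in del/del, all below the floor of 3 reads. Of 11 tested trophoblast markers, 0 were higher and 7 lower in del/del, beside 7.95% and 7.05% of all genes. None of them passed without the shallow library (10 tested) or without del/del day 8 line 3 (11 tested), the medians being -1.14 and -1.56 beside -1.85 over all libraries. Fibroblast and mesenchyme markers (9 genes) summed to 62.6 to 229 in fl/fl, the 62.6 being the shallow library, and 468 to 583 in del/del at day 8. Of 9 tested, 3 were higher and 0 lower in del/del, beside 7.95% and 7.05% of all genes. Their median difference was 1.86, and was 1.17 without the shallow library and 1.69 without del/del day 8 line 3. Undifferentiated ES markers (7 genes) summed to 65.9 to 69.7 in fl/fl and 39 to 47.7 in del/del at day 8. Of these 7, 1 was higher in del/del (Dppa3) and 2 were lower, beside 7.95% and 7.05% of all genes. Close relatives of the 9 genes (paralogs, 8 of 11 tested) gave 0 higher and 2 lower in del/del at day 8, beside 7.95% and 7.05% of all genes, the tetraspanin Cd9 at -1.64 and the cell cycle inhibitor Cdkn1a at -0.87, neither of which passed without the shallow library (-1.15 and -0.36) or without del/del day 8 line 3 (-1.38 and -0.80). Cd9 did not pass on the deposited scale (-0.76, adjusted p = 0.122). The Cdkn1a call was also lost with the line as a block (adjusted p = 0.0617) and on the deposited scale (0.0119), and without any 1 of the 4 day 1, 2 fl/fl day 5 or del/del day 8 line 1 libraries (adjusted p from 0.0627 to 0.116).

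Across the 12 libraries, which share the days and the differences in depth, H19 was most like Lgals1 (Pearson r = 0.992), Laptm4a (0.992), Chmp4b (0.992) and its neighbour Cd81 (0.990), beside the predicted gene Gm10698 (0.993), among 9026 genes. Igf2 was most like Rras (0.991), Tpm4 (0.991), Serpinh1 (0.990), Mbd2 (0.989) and Pam (0.988), and Cdkn1c most like Atp6v0b (0.985), Psme1 (0.985), Vps37b (0.984), Npc2 (0.981) and Tmem116 (0.981). Phlda2 was most like Nfkbib (0.964), BC057022 (0.949), Tut1 (0.948), Adrm1 (0.942) and Dll1 (0.936). Within the region H19 and Igf2 had r = 0.857, Ascl2 and Phlda2 0.780, Igf2 and Ascl2 -0.794, and H19 and Tssc4 -0.04, all as descriptions over 12 libraries.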

How the data were processed

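RNA of 12 libraries was analysed from a table of log2 RPM values per gene, a unit named in the labels; reading down the file header, its 12 columns are 1 library each and none was left unused. The build is mm10 and the tools named are TopHat2 2.0.12, edgeR and bcl2fastq, per the submitters' processing notes, with settings not given in the sources used here. Taken out of the log2, the deposited log2 values are whole multiples of 1 step in each library (100% of genes within 0.02 reads, with 0 reads entered as 0.9), which gave the read numbers quoted, and 3 reads were taken as the floor. Library scales were set to the median gene (median log ratio to the mean library). The 14063 genes whose deposited log2 value exceeded 0 in 2 or more libraries were fitted with limma 3.58.1 in R 4.3.3 (6 group means, mean-variance trend), and p-values were adjusted over all tested genes by Benjamini-Hochberg at 0.05. The members, gene lists, naming rule (all members, up to 4 genes of a list in a comparison, those past the test first) and settings were chosen with earlier results of these data known. Each line was divided into both genotypes, so the replicate numbers pair the libraries; the deviations of same-line libraries correlated at 0.135, -0.154 and -0.111 at days 1, 5 and 8. With n = 2 lines a group, p-values measure only the spread between these cultures. Alternatives were the deposited scale, voom with TMM, other filters, log2(RPM + 1), a block for the line, removal of a trend with read density, and leaving out each library. Gene positions and overlaps come from GENCODE M21.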

Additional observations from a re-analysis of the deposited data

How the results depend on the processing

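Genotype calls among the 9 genes stayed at 0 at day 1 and day 5 in all 19 other settings. At day 8 the count of 0 became 1 on the deposited scale, 1 with voom and TMM, 1 with no filter, 1 with the density trend removed (Tssc4 each time) and 3 with log2(RPM + 1) (Tssc4, Cd81 and H19), and 0 to 4 when a library was left out; the cause was not tested. Leaving out a library gave 0 to 3 calls averaged over days and 0 to 7 in the tests of change between days, the highest without fl/fl day 8 line 1. The 14 calls over time became 7 on the deposited scale, 8 with no filter and 7 to 23 when a library was left out; 5 of the 14 held in every setting (Igf2 from day 1 to day 5 in both genotypes, Cdkn1c in fl/fl, Phlda2 from day 5 to day 8 in both). On the deposited scale Cd81 from day 1 to day 5 in del/del reversed to -0.15 and Cdkn1a at day 8 between genotypes to 0.0119. With the line as a replicate block, which pairs the libraries, the count over time was 14 and the genotype counts were 0; the calls it changed stand beside Igf2, Cd81, Ascl2, Cdkn1a and Smchd1, and it changed no other call of the 9 genes. The ratio of H19 to Igf2 stayed negative, from -0.48 to -0.06 when a library was left out.

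Over all genes the counts moved more. At day 8 between genotypes 2109 genes were called, 1678 to 3295 in other settings and 52 to 4650 with a library left out. The averages over days gave 15 (1 to 474, and 1 to 3082), the tests of change between days 0, 3 and 1 (up to 203, and up to 2263), and day 5 between genotypes 1 (0 to 1, and 0 to 1579). Over time the counts were 5747 (2657 to 6626, and 3539 to 6778) and 946 (176 to 1083, and 56 to 3221) in fl/fl, and 5561 (4800 to 6186, and 3372 to 6706) and 1675 (1147 to 2523, and 348 to 2866) in del/del. The count-based tests planned on recovered reads (edgeR and DESeq2) were not run, because the deposited unit is log2, and the planned ratio of Cdkn1c to Kcnq1ot1 has no value. Depth limits Slc22a18, Kcnq1, Ascl2 and Phlda2 most, with as few as 9, 23, 4 and 9 reads in the shallowest library.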
